A study of Homo sapiens with 12 samples.

Results

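The 8 genes described here serve cholesterol synthesis: the transcription factor gene SREBF2 and 7 genes that its product SREBP2 is known to switch on, namely INSIG1, HMGCS1, IDI1, FDFT1, SQLE, SC5D and DHCR7. They were taken by name from a deposited table of 58676 genes, and all 8 were among the 12194 genes that passed a filter on mean level and were tested. The table holds 12 RNA-seq libraries of A549, a widely used line of human lung carcinoma cells. A control line (Control1 in the labels) and 2 NFE2L1 knockout lines, here KO1 and KO2, were each exposed for 4 h to DMSO vehicle or to 200 nM bortezomib, which inhibits the proteasome. Each of the 6 groups had 2 libraries, and nothing in the labels says that these came from separate cultures, so p-values measure the spread between libraries, which may be technical. The control arm is a single line, and the labels do not say how the knockouts were made or whether KO1 and KO2 are clones, so a difference from the control line cannot be told apart from a difference between cell lines.

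Cells control cholesterol synthesis by feedback. SREBP2 is made as a membrane protein of the endoplasmic reticulum, where the escort protein SCAP carries it to the Golgi for cleavage when sterols are low and INSIG1 holds SCAP back when sterols are high. The released fragment switches on the enzymes of the mevalonate pathway. NFE2L1 encodes a transcription factor of the same membrane that raises proteasome subunit genes when the proteasome is blocked and has been reported to bind cholesterol. Bortezomib also touches this pathway at a known point, since INSIG1 protein is removed by the proteasome. The comparisons asked how the RNA of these genes stood in the knockout lines and the control line, and how it responded to the inhibitor.

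Depth was 13211608 to 23819258 gene-assigned reads per library, and levels are given in FPKM, which scales fragments by gene length and by depth. NFE2L1 itself was at 72.7 and 151 FPKM in the control vehicle libraries, at 8.45 and 14.8 in KO1 and at 18.6 and 33.6 in KO2. With bortezomib it was at 108.8 and 189.4, 27.0 and 35.8, and 36.7 and 50.8 in the same lines, so every KO library was lower than the control library of its suffix and treatment, and none was at 0. The 2 libraries of a group differed widely. In the KO groups the titles mark one library R1 and the other R2; in the control groups one is R2 and the other bears no number. Mitochondrial genes took 12.3% to 19.3% of the reads in the 6 R2 libraries and 5.44% to 6.80% in the 6 others, and this difference recurred in every group. The difference between the 2 libraries, taken over all tested genes, correlated between groups at r = 0.696 to 0.89 over the 15 pairs of groups, which are descriptions across genes. Libraries are therefore compared below mainly with the one of the same title suffix, the unnumbered control libraries being set against R1, a match that the labels do not state. Of the epithelial markers, KRT8 (126 to 703 FPKM) and KRT18 (112 to 586) were high and EPCAM and CDH1 were at 1.25 to 10.6 and 1.42 to 9.53. The surfactant gene SFTPB was at 0.130 or lower and SFTPC was listed at 0 in 10 libraries. The summed immune and endothelial markers reached 0.200 and 0.240 FPKM at most, and of the fibroblast markers DCN reached 0.0425 and COL1A1 23.3, the summed level of the 4 being 1.57 to 23.7. The part of these markers in the results was not tested. In bulk RNA, fewer cells expressing a gene and less of its RNA per cell cannot be told apart.

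SREBF2 and HMGCS1 were the members that stood higher in both KO lines in every matched pair of libraries, so the bases upstream of their starts are shown. These are the 250 bases before the most upstream start in RefSeq (GRCh38.p14), 5′ to 3′ on the gene's own strand, from chr22:41832855-41833104 (plus) and chr5:43313413-43313662 (minus). The deposited bounds of both genes, given below, reach into these windows, so part of each window lies inside the gene as deposited. Capitals mark the sterol regulatory element TCACNCCAC and the letters of the CCAAT box, here read as ATTGG because the box lies on the opposite strand.
SREBF2: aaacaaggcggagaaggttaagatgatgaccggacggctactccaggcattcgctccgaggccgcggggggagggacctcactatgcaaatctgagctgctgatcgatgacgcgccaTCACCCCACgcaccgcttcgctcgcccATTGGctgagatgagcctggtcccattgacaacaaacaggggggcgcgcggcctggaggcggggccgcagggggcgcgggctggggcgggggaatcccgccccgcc
HMGCS1: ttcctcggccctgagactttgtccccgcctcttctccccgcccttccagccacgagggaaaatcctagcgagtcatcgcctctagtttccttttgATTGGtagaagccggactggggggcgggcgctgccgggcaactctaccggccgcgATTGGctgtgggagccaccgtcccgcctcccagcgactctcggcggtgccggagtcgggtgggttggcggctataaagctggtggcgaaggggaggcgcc

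The sterol regulatory element is the short DNA sequence to which SREBPs bind, and the CCAAT box binds NF-Y, a factor known to act with them. In the SREBF2 window the element lay at bases -133 to -125 from the start and a CCAAT box at -106 to -102. The HMGCS1 window had CCAAT boxes at -155 to -151 and at -100 to -96 and no TCACNCCAC. Both strands were searched in the 6 members with a RefSeq entry (not SQLE and FDFT1). TCACNCCAC was in 1 of the 6, CCAAT in 4 and the GC box GGGCGG in 5, while these were in 0.883%, 32% and 42.6% of 35116 windows of the same length. The core TGACNNNGC, read by NFE2L1 together with small MAF proteins, was in 0 of the 6 and in 10.9% of all windows. A match is a description of the letters only, and no match says only that these letters are not in this window.

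The deposited coordinates follow the GRCh38 build, the genes being at the positions of GENCODE 29 for 7 of the 8 (IDI1 is listed with other bounds). SREBF2 (ENSG00000198911) is at chr22:41833079-41907308 on the plus strand and HMGCS1 (ENSG00000112972) at chr5:43289395-43313512 on the minus strand. INSIG1 (ENSG00000186480) is at chr7:155297776-155310235, plus strand, and IDI1 (ENSG00000067064) at chr10:1039908-1049170, minus strand. FDFT1 (ENSG00000079459) is at chr8:11795573-11839309 and SQLE (ENSG00000104549) at chr8:124998497-125022283, both on the plus strand. DHCR7 (ENSG00000172893) is at chr11:71428193-71452868 on the minus strand and SC5D (ENSG00000109929) at chr11:121292453-121308694 on the plus strand. Genes on the opposite strand overlap 5 of the 8, and it is not stated whether the counting used the strand. The highest of them, SREBF2-AS1 over SREBF2, was at 1.05 to 3.22 FPKM, and AP002387.1 over DHCR7 was at 0.523 to 2.54.

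Levels per gene length put SQLE highest of the 8 genes in 11 of the 12 libraries, with DHCR7 second in 10. The exception was a KO1 bortezomib library in which HMGCS1 (42.6 FPKM) lay just above SQLE (41.8). SC5D was the lowest in 8 libraries and IDI1 in the other 4, all of which were R2 libraries. Between these ends, SREBF2, INSIG1, HMGCS1 and FDFT1 changed places from library to library, so no order among them held beyond the spread. The replicate difference was itself gene-specific. SREBF2, INSIG1, SQLE, DHCR7 and SC5D were higher in R2 than in its partner in 6 of 6 groups, IDI1 and FDFT1 were lower in 6 of 6, and HMGCS1 was higher in 1 of 6. Of all genes tested, 25.2% were higher in R2 in every group and 44.3% were lower in every group.

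**Figure D1:**
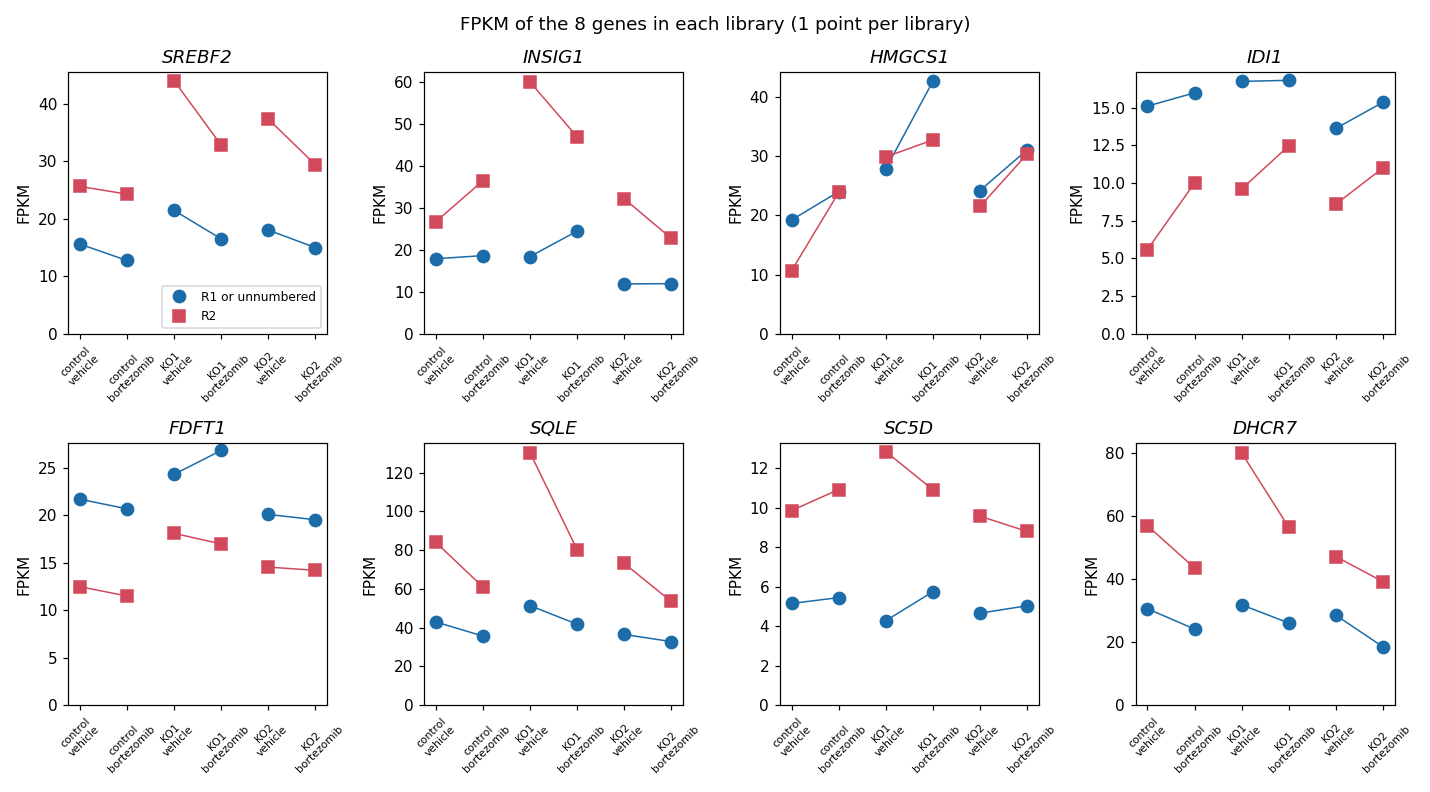
FPKM of the 8 cholesterol genes in each of the 12 libraries, by line and treatment, with the title suffix of each library shown by its symbol. In SQLE, DHCR7, SC5D, INSIG1 and SREBF2 the R2 library lies above its partner in all 6 groups, while in IDI1 and FDFT1 it lies below.

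SREBF2 encodes the precursor of SREBP2. In vehicle it was at 15.6 and 25.6 FPKM in the control line (unnumbered, then R2), at 21.4 and 44.0 in KO1 (R1, then R2) and at 18.0 and 37.3 in KO2. In bortezomib it was at 12.8 and 24.3 in the control line, at 16.5 and 32.8 in KO1 and at 15.0 and 29.4 in KO2. Within a suffix, both KO lines were above the control line in both treatments, 8 of 8 pairs, by 0.20 to 0.76 on the log2(FPKM + 1) scale, and bortezomib was below vehicle in 6 of 6 pairs, with differences of -0.41 to -0.07. Across suffixes the groups overlapped.

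INSIG1 encodes the protein that keeps SCAP and SREBP2 in the endoplasmic reticulum. In vehicle it was at 17.9 and 26.7 FPKM in the control line, at 18.4 and 59.9 in KO1 and at 11.9 and 32.2 in KO2. In bortezomib it was at 18.6 and 36.4 in the control line, at 24.4 and 46.9 in KO1 and at 11.95 and 22.7 in KO2. KO1 was above KO2 in every pair of the same suffix and treatment. KO1 was above the control line in each of its 4 pairs and KO2 was below it in 3 of its 4, so the 2 knockouts did not share a direction.

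HMGCS1 encodes the enzyme that makes HMG-CoA, an early step of the mevalonate pathway. In vehicle it was at 19.2 and 10.7 FPKM in the control line, at 27.9 and 29.9 in KO1 and at 24.2 and 21.5 in KO2. In bortezomib it was at 24.0 and 23.9 in the control line, at 42.6 and 32.7 in KO1 and at 31.0 and 30.3 in KO2. The control vehicle libraries were the lowest of the 12, and within each treatment all 4 KO libraries lay above both control libraries, also across suffixes. KO libraries were higher in 8 of 8 pairs, by 0.32 to 1.40 in log2, and bortezomib libraries were higher than vehicle in 6 of 6, by 0.13 to 1.09.

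IDI1 encodes the isomerase that makes the allylic isoprene unit, and FDFT1 the squalene synthase that commits the pathway to sterols. IDI1 was at 15.1 and 5.59 FPKM in control vehicle, 16.7 and 9.61 in KO1 vehicle and 13.6 and 8.59 in KO2 vehicle, and at 16.0 and 10.0, 16.8 and 12.5, and 15.4 and 11.0 in the same lines with bortezomib. The bortezomib value was the higher in 6 of 6 pairs, but by 0.0054 to 0.74 in log2, so that the R1 libraries of KO1 were nearly equal. FDFT1 was at 21.7 and 12.5 in control vehicle, 24.3 and 18.1 in KO1 vehicle and 20.1 and 14.6 in KO2 vehicle. With bortezomib it was at 20.7 and 11.5, 26.9 and 17.0, and 19.5 and 14.2. The bortezomib value was lower in 5 of 6 pairs, and all 6 differences lay between -0.11 and 0.14 in log2. For both IDI1 and FDFT1, KO1 was above the control line in every matched pair and KO2 was mixed.

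SQLE encodes squalene epoxidase, a rate-limiting step after squalene. In vehicle it was at 43.0 and 84.0 FPKM in the control line, at 51.4 and 130.4 in KO1 and at 36.5 and 73.2 in KO2. In bortezomib it was at 35.7 and 61.0, at 41.8 and 80.3, and at 32.8 and 53.5 in the same order. Bortezomib was the lower in 6 of 6 pairs, with log2 differences of -0.69 to -0.15. KO1 was above the control line in 4 of 4 pairs and KO2 below it in 4 of 4.

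DHCR7 and SC5D encode late enzymes of the pathway, a sterol reductase and a sterol desaturase. DHCR7 was at 30.6 and 56.9 FPKM in control vehicle, 31.8 and 80.0 in KO1 vehicle and 28.5 and 47.1 in KO2 vehicle, and at 24.1 and 43.5, 26.0 and 56.4, and 18.5 and 39.2 with bortezomib. It shared the pattern of SQLE: bortezomib was lower in 6 of 6 pairs, with log2 differences of -0.60 to -0.26, with KO1 above the control line in 4 of 4 pairs and KO2 below it in 4 of 4. SC5D was at 5.14 and 9.85 in control vehicle, 4.27 and 12.8 in KO1 vehicle and 4.65 and 9.56 in KO2 vehicle. With bortezomib it was at 5.44 and 10.9, 5.74 and 10.9, and 5.03 and 8.79, and no direction was shared by all pairs in either comparison. KO2 was below the control line in 4 of 4 pairs for SC5D, and KO1 was mixed.

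**Figure D2:**
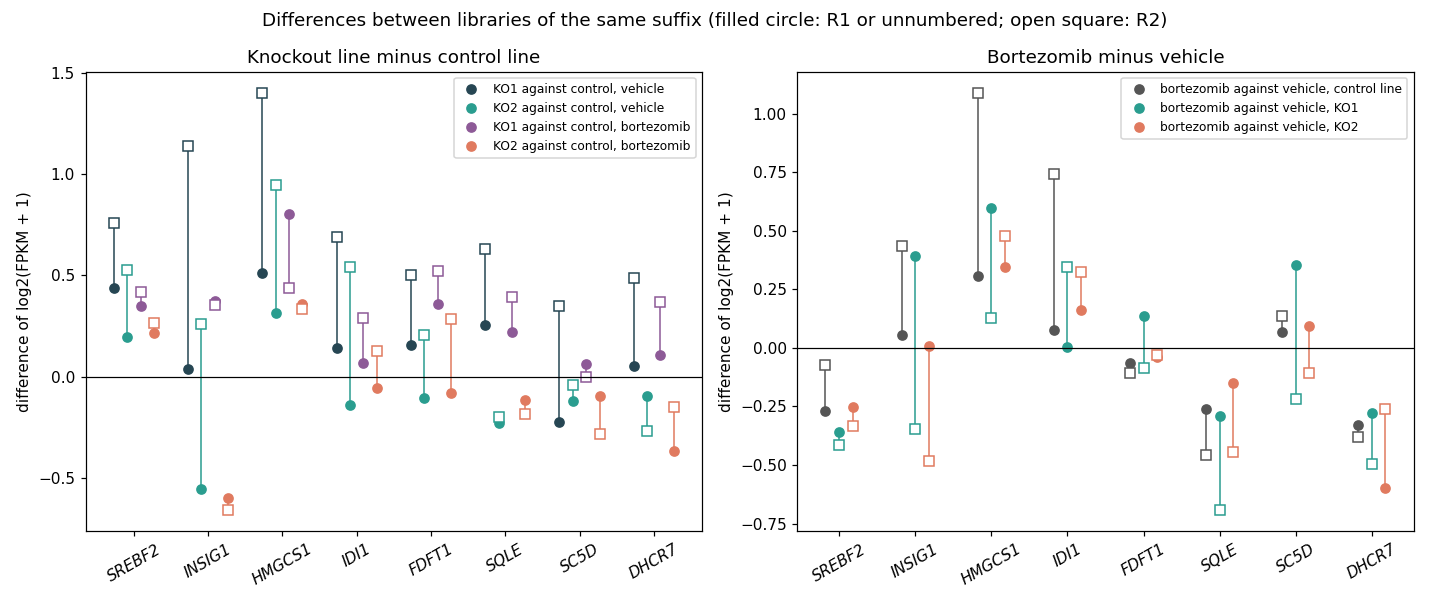
Differences in log2(FPKM + 1) between libraries of the same title suffix (unnumbered control libraries set against R1), 1 point per pair, for bortezomib minus vehicle and for each KO line minus the control line. HMGCS1 and SREBF2 lie above 0 in all 8 knockout pairs, and bortezomib separates HMGCS1 and IDI1, above 0, from SREBF2, SQLE and DHCR7, below 0, in all 6 pairs.

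In limma's model with 1 mean per group and no term for the replicate, 0 of the 8 members passed an adjusted p-value of 0.05 in any of the 9 contrasts fitted. At an unadjusted p under 0.05 there was 1 member, HMGCS1, in KO1 against control and in the mean of the KO lines against control, both in vehicle, and 0 in the other contrasts. limma-voom on the recovered read counts, also without the replicate term, called 0 as well. The background was as thin, at 0.467% of the 12194 genes for bortezomib in the control line, and 0.238% and 0.32% for it in KO1 and KO2. For the knockouts in vehicle it was 0.213% in KO1, 0.23% in KO2 and 0.344% in their mean, and 0.0656% between KO1 and KO2. It was 0.164% for the KO mean in bortezomib and 0% for the interaction. A model that adds the title suffix as a block, so that the recurring replicate difference is removed, gave other calls, and its adjusted p-values stand beside each result below.

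With bortezomib, HMGCS1 was called higher in the control line only with the replicate block, though the fitted rise was the same without it. The medians of the 8 members were 0.01, 0.02 and -0.14 in log2 in the control line, KO1 and KO2 respectively. The HMGCS1 rise in the control line was 0.70 in log2 (SE 0.362 and adjusted p = 0.496 without the block, SE 0.202 and adjusted p = 0.0245 with it). It was the 1 member of 8 called with the block, where 16.1% of all genes were called higher and 32.5% in either direction. In KO1 and KO2, with the block, 0 of 8 members were called against a background of 27.9% and 27% in either direction. HMGCS1 was at 0.36 (adjusted p = 0.888, and 0.209 with the block) in KO1 and at 0.41 (0.879 and 0.16) in KO2. The HMGCS1 call in the control line rested on few libraries: with the block it was lost in 3 of the 12 fits that left out 1 library, at adjusted p = 0.0648 to 0.2006. These left out either bortezomib library of the control line, with log2 differences of 0.82 and 0.58, or its R2 vehicle library, with 0.35.

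SQLE, DHCR7 and SREBF2, lower in every matched pair, did not pass. SQLE was at -0.36 (control line), -0.49 (KO1) and -0.30 (KO2), with adjusted p = 0.126, 0.0513 and 0.216 in the block. For DHCR7 the values were -0.35, -0.39 and -0.43, with adjusted p = 0.121, 0.102 and 0.0767. SREBF2 was at -0.17, -0.39 and -0.29, with adjusted p = 0.346, 0.0554 and 0.132. limma-voom with the block put SQLE in KO1 at adjusted p = 0.0322, the only call it added among the 8 members in the bortezomib contrasts, where it called 31% of all genes in KO1. Of all genes, 23.8% were lower with bortezomib in all 6 pairs and 24.8% higher, which is the level against which 3 and 2 of the 8 members stand.

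In the KO lines in vehicle, HMGCS1 and SREBF2 RNA stood above the control line, and both passed the test in KO1 with the block. HMGCS1 in KO1 was 0.96 above the control line in log2 (SE 0.362 and adjusted p = 0.918 without the block, SE 0.202 and adjusted p = 0.0189 with it), and SREBF2 was 0.60 above it (adjusted p = 1 and 0.0242). These were 2 of the 8 members called higher with the block, where 3.88% of all genes were called higher and 7.96% in either direction. In KO2 the same genes were 0.63 (adjusted p = 1 and 0.12) and 0.36 (1 and 0.177) above the control line, and 0 of 8 members were called against 4.89% of all genes in either direction. limma-voom with the block called HMGCS1 in KO2 (adjusted p = 0.0345) and 8.71% of all genes. In limma with the block, leaving out 1 library moved the HMGCS1 difference in KO2 between 0.28 and 0.98 in log2. The highest value came without the unnumbered control vehicle library. For the mean of both KO lines HMGCS1 was at 0.79 (adjusted p = 0.9 and 0.0228) and SREBF2 at 0.48 (1 and 0.0336), again 2 of 8 where 4.44% of all genes were called higher and 8.21% in either direction. Of all genes, 12.4% were higher in the KO lines in all 8 matched pairs, 8.44% were lower in all 8, and the counts among the 8 members were 2 and 0.

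These knockout calls were lost with single libraries. With the block, HMGCS1 in KO1 lost its call without the R2 library of KO1 vehicle (adjusted p = 0.1295) or of control vehicle (0.1057), with log2 differences of 0.77 and 0.61. SREBF2 in KO1 lost its call without either KO1 vehicle library (0.0632 and 0.1134) or the R2 control vehicle library (0.1275). For the mean of the KO lines, HMGCS1 lost it in 4 of the 12 fits, with a log2 difference of 0.45 without the R2 control vehicle library and 0.70 to 0.81 in the others. SREBF2 lost it in 8, with 0.34 without that library, 0.45 to 0.51 in 3 and an unmoved 0.48 in the 4 that left out a bortezomib library of KO1 or of the control line. The share of mitochondrial reads was 12.3% in the R2 control vehicle library and 19.3% in the R2 KO1 vehicle library, the lowest and the highest of the 6 R2 libraries, and its part in these calls was not tested.

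With bortezomib present, the mean of the KO lines stood 0.48 above the control line for HMGCS1 (adjusted p = 1, and 0.1 with the block) and 0.31 for SREBF2 (1 and 0.107). 0 of 8 members were called with the block, where 12.7% of all genes were, and limma-voom with the block called 1, HMGCS1 (adjusted p = 0.0451), and 16.9% of all genes. The interaction, which compares the bortezomib difference of the KO lines with that of the control line, was -0.31 for HMGCS1 (adjusted p = 1 and 0.726) and -0.17 for SREBF2 (1 and 0.79). It called 0 of 8 members with the block and 0% of all genes, and limma-voom with the block called 0 members and 0.599% of all genes.

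Between the knockouts, all 8 members had a higher fitted value in KO1 vehicle than in KO2 vehicle. Their median difference was 0.30 in log2, against -0.05 for all genes. This was not particular to the members. Of the 14 other cholesterol synthesis genes tested 11 were higher in KO1 (median 0.23), and of 10 fatty acid genes 9 were (0.31). Of 10 genes of sterol-regulated degradation 5 were higher, and of 9 uptake and transport genes 3. In the matched pairs SQLE was 0.48 and 0.82 higher in KO1, INSIG1 0.59 and 0.88 higher, and SC5D mixed. With the block 0 of 8 were called, where 2.48% of all genes were. SQLE (0.65) had adjusted p = 0.0757 and INSIG1 (0.73) 0.148, and limma-voom with the block called both, at 0.0236 and 0.0321, and 5.4% of all genes. NFE2L1 RNA was lower in KO1 than in KO2 in both suffixes, and its part in these differences was not tested.

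The other genes of cholesterol synthesis, from acetyl-CoA to cholesterol, that are reported here came to 16 listed and 14 tested. With the block, bortezomib called 1 higher and 5 lower in the control line, 1 and 5 in KO1 and 0 and 5 in KO2, with median log2 differences of -0.21, -0.39 and -0.34 (the median of all genes in the control line was -0.01). Of all genes, 32.5%, 27.9% and 27% were called in either direction in these lines, and 16.1% higher in the control line. Neither these genes nor those of the other lists below were called without the block. The largest falls were of late sterol enzymes. LBR, the lamin B receptor and a sterol reductase, was at 29.2 and 69.6 FPKM in control vehicle and 14.0 and 32.0 with bortezomib, and fell by 1.05, 1.25 and 1.24 in log2 in the control line, KO1 and KO2 (adjusted p = 0.00164, 0.000874 and 0.000825 with the block). EBP, a sterol isomerase, was at 29.8 and 66.1 and then 14.1 and 30.7 in the control line, and fell by 1.05, 0.93 and 1.10 (0.000845, 0.00205 and 0.00081). MVD, which makes isopentenyl diphosphate, was the one called higher in the control line, at 6.63 and 4.39 FPKM in vehicle and 10.6 and 10.6 with bortezomib (a rise of 0.85 in log2, adjusted p = 0.0124). The falls of LBR and EBP held in all 12 fits without 1 library, and the rise of MVD was lost in 2.

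In KO1 vehicle, 11 of these 14 genes had a fitted value above the control line, with a median of 0.31 in log2 against 0.02 for all genes. All 8 members did too, with a median of 0.43. The R2 pair gave the larger difference in all 8 members and in the 11 genes except GGPS1 and EBP. In the R1 and R2 pairs INSIG1 was at 0.04 and 1.14, SC5D at -0.22 and 0.35, and MVD at 0.06 and 1.10. GGPS1 was at 0.45 and 0.14. With the block, 1 of the 14 was called higher, MSMO1, and 1 lower, PMVK. Of all genes, 3.88% were called higher and 7.96% in either direction. MSMO1, a sterol oxidase, was at 19.7 and 37.5 FPKM in control vehicle and 26.5 and 76.9 in KO1 vehicle (0.71 in log2, adjusted p = 0.0368), a call lost in 9 of the 12 fits without 1 library. In KO2 vehicle 0 of the 14 were called, where 4.89% of all genes were called in either direction, and the members' median was -0.01.

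**Figure D3:**
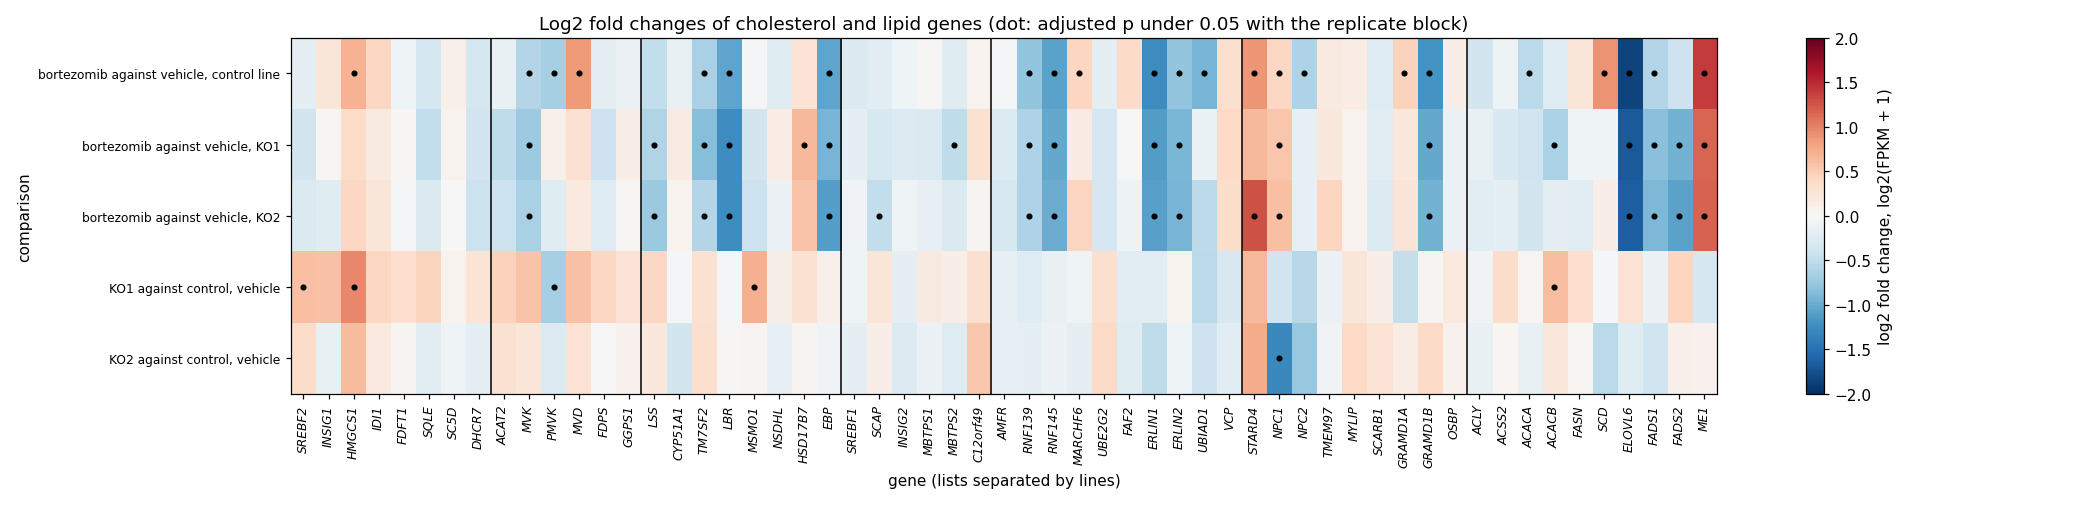
Fitted differences in log2(FPKM + 1) of the members (left block) and of the other listed sterol and fatty acid genes, 1 column per gene, for bortezomib in each line and for each KO line in vehicle, with colour giving size and direction and dots the calls at adjusted p under 0.05 with the replicate block. LBR and EBP are called lower with bortezomib in all 3 lines, and HMGCS1 and SREBF2 are called higher in KO1 vehicle.

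Among the genes of sterol-regulated protein degradation in the endoplasmic reticulum, ERLIN1 and RNF145 fell with bortezomib in all 3 lines. Of 10 tested, 5 were called lower and 1 higher in the control line with the block, and 4 lower and 0 higher in each KO line, where 32.5%, 27.9% and 27% of all genes were called in either direction. ERLIN1, part of a membrane complex that feeds proteins to this degradation, was at 31.1 and 71.0 FPKM in control vehicle and 13.2 and 27.2 with bortezomib. It fell by 1.26, 1.12 and 1.09 in log2 in the control line, KO1 and KO2 (adjusted p = 0.000911, 0.00211 and 0.00252). RNF145, a sterol-responsive ubiquitin ligase, fell by 1.07, 1.03 and 0.99 (0.0017, 0.00256 and 0.00313). These calls were lost in 0 of the 12 fits without 1 library.

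Uptake and transport genes moved both ways. Of 9 tested and reported here, 3 were called higher and 2 lower with bortezomib in the control line with the block, where 32.5% of all genes were called. The 3 were STARD4, GRAMD1A and NPC1, and the 2 were GRAMD1B and NPC2. In matched pairs STARD4 was higher in 6 of 6 with bortezomib (0.18 to 1.70 in log2). It was higher in 8 of 8 pairs in the KO lines (0.20 to 1.20). Of all genes, 24.8% and 12.4% were higher in all such pairs. With the block STARD4 was called with bortezomib in the control line and KO2, and for the KO mean in bortezomib, not in KO vehicle. GRAMD1B was called lower in all 3 lines. NPC1, which exports cholesterol from lysosomes, was at 19.2 and 34.3 FPKM in control vehicle and 28.0 and 42.6 with bortezomib, and rose by 0.41, 0.55 and 0.59 in log2 in the control line, KO1 and KO2 (adjusted p = 0.0357, 0.0127 and 0.00934). Those 3 calls were lost in 8, 3 and 3 of the 12 fits without 1 library. In vehicle the difference of the KO lines' mean from the control line was -0.83 (adjusted p = 0.00201, lost in 0 fits), with 14.5 and 26.2 FPKM in KO1 and 7.92 and 12.4 in KO2. In KO2 alone it was -1.29 (adjusted p = 0.000444 with the block), and in KO1 alone it was -0.38 and was not called (0.1125).

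SREBF1, the gene of the related factor that leans towards fatty acid synthesis, ranged from 23.4 to 48.6 FPKM over the 12 libraries. Of the 10 fatty acid genes tested, 2 were called higher and 3 lower with bortezomib in the control line with the block, again beside 32.5% of all genes. ELOVL6, an elongase, was at 6.55 and 11.9 FPKM in control vehicle and 1.72 and 1.75 with bortezomib, and fell by 1.85, 1.67 and 1.65 in log2 in the same order of lines as above (adjusted p = 0.000158, 0.000296 and 0.000292). ME1, the malic enzyme that supplies NADPH, was at 37.2 and 15.3 and then at 99.3 and 41.9, and rose by 1.40, 1.16 and 1.18 (0.000218, 0.000711 and 0.000606). The calls of ELOVL6 and ME1 held in all 12 fits without 1 library. Of 6 genes that process SREBPs, 0 were called with bortezomib in the control line with the block. MBTPS2 was the 1 called in KO1 and SCAP the 1 called in KO2, both lower. In these 3 lines 32.5%, 27.9% and 27% of all genes were called in either direction.

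To describe likeness, the mean of the 6 R2 libraries was subtracted from these, and that of the 6 others from the others, for every gene, and the members were averaged. The 12 libraries share lines and treatments and differ in depth. Over them, the genes outside the 8 that followed this mean most closely included PNPLA3 (r = 0.98), a lipid droplet enzyme, PRKY (0.95), TXLNGY (0.94) and CP (0.94), the copper carrier of plasma. The members themselves ran from 0.54 for IDI1 to 0.91 for FDFT1, but each is part of that mean, which raises its r. Outside the mean, SREBF1 was at 0.13 and NFE2L1 at -0.66. Among the members, SQLE and DHCR7 were the closest pair (r = 0.93), followed in the early pathway by HMGCS1 and IDI1 (0.85), while HMGCS1 and DHCR7 were at -0.13, as were IDI1 and DHCR7.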

How the data were processed

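RNA-seq values were read from 1 table of the whole series with 12 library columns. Its FPKM were made and deposited by the authors. CASAVA, STAR 2.5, HTSeq 0.6.1, DESeq2 and the build hg19 are named, per the submitters' processing notes, whereas the deposited gene coordinates follow GRCh38 (all 58676 IDs are in GENCODE 29 and 95.3% have its position). FPKM times gene length gave whole reads for 100% of values (tolerance 0.01), which gave the depth. A gene of 1 kilobase with 3 reads would be at 0.1259 FPKM in the deepest library.

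Values were tested as log2(FPKM + 1) for genes averaging 1 FPKM or more, by limma's moderated linear model (limma 3.58.1, R 4.3.3, with a mean-variance trend), 1 mean per group, all 12 libraries in 1 fit, 9 contrasts, and Benjamini-Hochberg adjustment over all genes tested (threshold 0.05). The scale understates changes of low genes. The comparisons between lines share control libraries, and those in vehicle share them with the bortezomib contrasts. The pairing of libraries was read from the title suffix and checked by the correlation of replicate differences between groups (median r = 0.811, lowest 0.696 of 15). The block puts the unnumbered control libraries on the level of R1. The model was tested on simulated data.

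Genes considered for naming were the 8 members, NFE2L1 and SREBF1, listed genes called with or without the block, and the genes most like the members. Of the called genes at most the 3 largest rises and 3 largest falls per list and contrast were considered. Of the genes most like the members it was the 5 with the highest r. Not all genes considered are named above. Some genes of these lists are not reported here and are left out of the lists' counts and medians. The members and lists were chosen with earlier results of these data known. Alternatives were other scalings, another pseudocount, other filters, limma-voom on the recovered reads, the block, and leaving out each library. Values of 1 list of cell type markers per type were summed. Python 3.11.15, numpy 2.4.6, pandas 2.3.3 and matplotlib 3.10.9 were used.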

Additional observations from a re-analysis of the deposited data

Results flagged for a closer look

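Among the members, SREBF1 and the genes whose fold changes are given above, opposite directions in the 2 knockout lines, both matched pairs of KO1 lying above the control line in vehicle and both pairs of KO2 below it, were seen for SQLE (KO1 minus KO2 0.65 in log2), DHCR7 (0.45) and ELOVL6 (0.53). None of these 3 differences between KO1 and KO2 had an adjusted p-value under 0.05 in limma with or without the block. limma-voom with the block gave 0.0236 for SQLE, 0.1489 for DHCR7 and 0.0736 for ELOVL6. Of the other listed genes, NR1H3, MBTPS1, MBTPS2 and NSDHL had the same pattern, and NR1H2 and GRAMD1A the opposite one.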

How the results depend on the processing

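Without a replicate block, 0 of the 8 members were called in each of the 9 contrasts under all 20 settings run (the main one, other scalings, pseudocount and filters, limma-voom, and 12 fits that left out 1 library). With the replicate block, whether the unnumbered libraries shared the level of R1 or had their own, and also after quantile normalization, 1 member was called for bortezomib in the control line, 2 for KO1 in vehicle and 2 for the KO mean in vehicle. limma-voom with the block called 1 for bortezomib in the control line, 1 for bortezomib in KO1, 2 for KO1 in vehicle, 1 for KO2 in vehicle, 2 for the KO mean in vehicle, 1 for the KO mean in bortezomib and 2 between KO1 and KO2. Leaving out 1 library, with and without the block, gave 0 to 2 for bortezomib in the control line and in KO1, 0 to 1 for bortezomib in KO2, 0 to 3 for KO1 and for the KO mean in vehicle, and 0 to 1 for KO2 in vehicle, for the KO mean in bortezomib and between KO1 and KO2. The interaction gave 0 throughout. Where a left-out library leaves a group with 1 library, that library is assumed to vary like the other groups.

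Each group has 1 R2 library and 1 other, so with all libraries kept the block on the level of R1 could not move a fold change. Of 572 fold changes recomputed with all libraries, those with that block among them, 0 changed direction. Of 624 without 1 library and without the block, 33 did, and with the block 1 did (the HMGCS1 interaction). With the block, the log2 ranges of the other results stayed on 1 side of 0. With bortezomib, for example, SREBF2 ranged from -0.31 to -0.04 in the control line and SQLE from -0.72 to -0.26 in KO1. Without the block, the ranges of all the results that changed direction were as follows. With bortezomib in the control line, SREBF2 ranged from -0.61 to 0.27, SQLE from -0.84 to 0.12 and DHCR7 from -0.79 to 0.083. In KO1 SREBF2 ranged from -0.89 to 0.12, SQLE from -1.16 to 0.17, and DHCR7 from -1.04 to 0.26. In KO2 SREBF2 ranged from -0.80 to 0.21, SQLE from -0.79 to 0.20, and DHCR7 from -0.95 to 0.091. For KO1 in vehicle INSIG1 ranged from -0.24 to 1.42, SQLE from -0.22 to 1.10, MSMO1 from -0.040 to 1.47 and NPC1 from -0.79 to 0.027. SREBF2 ranged from -0.14 to 0.87 for KO2 in vehicle and from -0.13 to 0.75 for the KO mean in bortezomib. Between KO1 and KO2, INSIG1 ranged from -0.092 to 1.56 and SQLE from -0.0096 to 1.32. The interaction ranged from -0.71 to 0.085 for HMGCS1 and from -0.61 to 0.27 for SREBF2. The cause was not tested. Depth allowed 0.1259 FPKM for 3 reads on a gene of 1 kilobase in the deepest library, far under the level of every member.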
